A study of Mus musculus with 6 samples.

Results

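The p53 target genes are the genes that the tumour suppressor p53 switches on when DNA is damaged or an oncogene is active. A list of 32 of them was read in leukaemia cells of mice, with each gene represented by its brightest probe set on average, among the sets annotated to that symbol alone. Of the 32 listed genes 31 could be read, out of 18193 genes in the whole table, and Bax, which encodes a pore-forming protein of mitochondrial apoptosis, was not analysed here.

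As the series describes them, the cells were GFP-positive bone marrow mononuclear cells of moribund mice with B-cell acute lymphoblastic leukaemia. They were sorted by flow cytometry, and the mice were on a C57BL/6 background. The donors in both groups were homozygous for a gene-trap allele of Cdh1 with a floxed cDNA (Cdh1f/f), aged 7 to 8 weeks at induction, were injected with pIpC, and gave marrow 2 days after 150 mg/kg of 5-fluorouracil and 4 weeks after the last pIpC. In both groups the marrow was given N-myc by the retroviral vector pMXs-IG. The groups differed in the Mx1-Cre transgene, which pIpC induces through the interferon-responsive Mx1 promoter and which is not limited to B cells: 3 arrays came from Mx1-Cre(-) donors (Cdh1-intact) and 3 from Mx1-Cre(+) donors (Cdh1-deficient), drawn from shared litters, with 1 moribund mouse per array. Levels are log2 values, given for arrays 1, 2 and 3 of a group in that order, and the groups are shortened to intact and deficient cells beside them. Whether mice shared a transduction of marrow is not stated, so p-values measure the spread between these mice. In this series Cdh1 is the coactivator of the anaphase-promoting complex encoded by Fzr1. The comparison addressed how the expression of leukaemia cells differs when Cdh1 is lost.

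p53 is held low in resting cells by the ubiquitin ligase Mdm2 and its partner Mdm4, and Mdm2 is itself a p53 target, which closes a feedback loop. When the Cdkn2a product Arf blocks Mdm2, or damage kinases modify p53, p53 binds pairs of short half-sites near its targets and raises genes of cell cycle arrest, apoptosis, growth restraint and DNA repair. In MYC-driven B-cell tumours this pathway is a known barrier to outgrowth and is often disabled.

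The p53 binding site is shown because it is the sequence through which p53 acts on its targets. RefSeq windows of assembly GRCm38.p6, from 250 bases before to 50 after each annotated start, were held for 25 of the 32 genes. They were searched, on a motif that reads the same on both strands, for the p53 consensus half-site of 10 bases, which has a C and a G around a core of 2 A or T bases, flanked by purines on one side and pyrimidines on the other. At least 1 exact half-site lay in the windows of 9 of the 25 genes (36%), against 9.55% of all 27025 symbols with a window. A tandem site, taken as 2 adjoining half-sites with the C and G kept and at most 2 mismatches over 20 bases, lay in the windows of 4 of the 25 (16%), against 0.392% of all symbols. A tandem site can contain an exact half-site, so the searches overlap. A symbol counted if any of its windows matched. The 25 genes had 34 windows and the 27025 symbols 32851, so the length searched per gene was not equal. The genes were listed as known p53 targets, so the shares are only a description. A match is a description of letters, not a shown binding site. The 250 bases before one start of Cdkn1a (chr17:29090729-29090978, plus strand) and before the start of Ccng1 (chr11:40755287-40755536, minus strand) are given with the tandem site in capitals.
Cdkn1a: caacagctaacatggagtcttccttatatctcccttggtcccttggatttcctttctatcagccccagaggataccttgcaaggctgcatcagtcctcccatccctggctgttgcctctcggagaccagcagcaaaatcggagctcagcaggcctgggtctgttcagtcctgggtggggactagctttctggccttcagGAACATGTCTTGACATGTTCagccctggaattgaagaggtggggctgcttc
Ccng1: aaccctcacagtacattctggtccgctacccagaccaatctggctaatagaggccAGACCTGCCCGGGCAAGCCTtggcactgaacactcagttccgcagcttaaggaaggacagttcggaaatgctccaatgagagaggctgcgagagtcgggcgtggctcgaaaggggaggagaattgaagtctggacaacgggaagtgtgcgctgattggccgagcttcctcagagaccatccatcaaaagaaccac

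Both sites differ from the consensus at 1 of 20 positions. The tandem matches of Trp73 and Cd80 carry 2 mismatches each and are shown for comparison with them.
Trp73 (chr4:154097220-154097239, minus strand): GGGCAAGCTGAGGCCTGCCC
Cd80 (chr16:38458822-38458841, plus strand): GAACAGGCCTGGACAAGTCA

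The array labelled Cdh1-intact 2 stood apart before any p53 target was read. The B-cell receptor gene Cd79b read 4.35 there and 11.60 to 12.47 on the other 5 arrays (log2 level), and the mean of 9 measured B-lineage markers was 4.97 there and 8.75 to 9.39 elsewhere. The mean of 9 T and NK cell markers was 9.50 on that array, 6.50 on Cdh1-intact 3, 5.21 on Cdh1-intact 1 and 4.88 to 4.91 on the Cdh1-deficient arrays. All 9 were lower in the Cdh1-deficient mean. The T-cell genes Cd3g and Cd5 read 12.48 and 11.23 on Cdh1-intact 2, and 3.25 to 7.95 and 3.68 to 4.22 elsewhere. The marker means of Cdh1-intact 2 thus went against its B-cell leukaemia label. The array was kept in the comparison, and the cause was not tested. Not every marker set Cdh1-intact 2 apart. The NK cell receptor genes Ncr1 and Klrd1 read 4.12 and 2.86 there, against 4.02 to 4.26 and 3.04 to 3.33 elsewhere. Both were dim on every array, below 5.13, the median over all probe sets, so they say little about that array. The B-lineage gene Igll1 read 6.63 there and 6.53 to 7.12 elsewhere. The mean of 9 neutrophil markers was 6.06 on Cdh1-intact 2 and 9.09 to 11.26 elsewhere, and 8 of the 9 were higher in the Cdh1-deficient mean. Xist, transcribed from the inactive X chromosome of females, read 6.75 on Cdh1-intact 1 and 12.58 to 13.17 elsewhere. The mean of 5 erythroid markers was 6.85 on Cdh1-intact 1 and 4.82 to 5.71 elsewhere, though Hba-a1 (3.50) and Epor (6.07) were not highest there. The mean of 8 monocyte and macrophage markers was 7.82 on Cdh1-intact 1, 4.87 on Cdh1-intact 2 and 6.52 to 7.28 elsewhere. Fzr1 read 8.92, 8.04 and 8.92 in intact cells against 8.10, 7.73 and 8.22 in deficient cells, so the groups overlapped. The sources used here do not say whether its probe set lies in the trapped part, so it does not check the labels. In sorted bulk cells, fewer cells of a type and less RNA per cell cannot be told apart.

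No p53 target gene passed the test between the groups. With limma 0 of 31 had an adjusted p under 0.05, where 0% of all genes did, and the lowest adjusted p among them was 0.849 (n = 3 arrays per group). At an unadjusted p under 0.05 there was 1 of 31, Dcxr, where 5.5% of all genes were. Dcxr was lower, as were 1.49% of all genes at that p, and 0 of 31 were higher, where 4.01% of all genes were. The mean was lower in Cdh1-deficient cells for 18 of the 31, against 49.1% of all genes, and the median difference was −0.10 on the log2 scale, against 0.0034 over all genes. Without Cdh1-intact 2 the median was 0.02 and 14 of the 31 were lower, and without Cdh1-intact 3 it was −0.18 and 21 were lower.

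**Figure D1:**
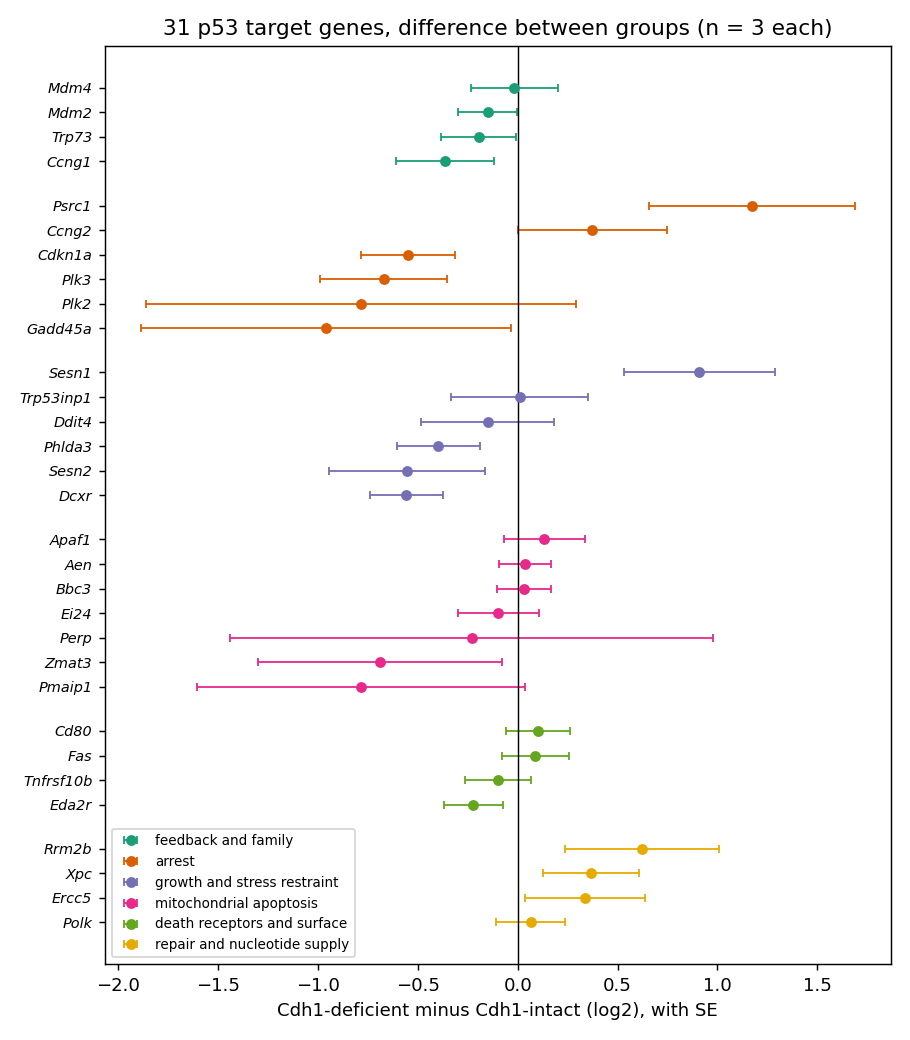
Difference of each of the 31 p53 target genes (x axis, log2 of deficient over intact cells), with the moderated standard error as bars and 1 row per gene, coloured by role (n = 3 arrays per group). The differences run from −0.96 (Gadd45a) to 1.17 (Psrc1), and the 4 repair and nucleotide supply genes lie to the right of 0.

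The 3 Cdh1-deficient arrays all lay below the 3 Cdh1-intact arrays for 2 of 31 genes, Cdkn1a and Dcxr, where 5.09% of all genes did. They all lay above for 0 of 31, where 6.65% of all genes did. These counts depended on single arrays. Without Cdh1-intact 3 there were 8 genes below and 3 above, where 13.3% and 15.2% of all genes were, and 6 had an unadjusted p under 0.05, where 9.62% of all genes did. The counts below and above were 3 and 3 without Cdh1-intact 1, where 10.4% and 12% of all genes were, and 3 and 0 without Cdh1-intact 2, where 10.2% and 11.2% were. They were 4 and 3 without Cdh1-deficient 1 (all genes 11.5% and 11.9%), 5 and 0 without Cdh1-deficient 2 (8.2% and 11.7%), and 2 and 1 without Cdh1-deficient 3 (7.79% and 9.51%). The share of all genes was thus also higher with 1 array fewer. The counts at an unadjusted p under 0.05 were 2 without Cdh1-intact 1 (5.63% of all genes), 2 without Cdh1-deficient 1 (5.46%) and 0 without Cdh1-deficient 2 (3.61%). In those fits no p53 target passed with limma either, and the lowest adjusted p was 0.333, without Cdh1-intact 3.

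Among the genes of cell cycle arrest, Cdkn1a was lower in Cdh1-deficient cells without overlap. It encodes p21, the inhibitor of cyclin-dependent kinases through which p53 halts the cycle. Its log2 levels were 7.04, 7.64 and 6.89 in intact cells against 6.43, 6.88 and 6.60 in deficient cells. The groups were separate by a narrow gap, with 6.89 as the lowest intact and 6.88 as the highest deficient value. The difference was −0.55 (SE 0.23, limma adjusted p = 0.849), or 0.683-fold, and it was −0.32 without Cdh1-intact 2, which carried the highest value. The other probe set of the gene read 6.57, 7.35 and 6.51 against 6.44, 6.26 and 6.23, a difference of −0.50, again without overlap.

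Gadd45a, which encodes a stress sensor that binds p21 and cyclin-dependent kinase 1, varied widely within both groups. It read 9.17, 7.13 and 7.00 in intact cells against 6.29, 8.52 and 5.61 in deficient cells. Cdh1-deficient 2 thus lay above 2 of the Cdh1-intact arrays, and the difference of −0.96 (SE 0.93) was close to its own error. It was −0.26 without Cdh1-intact 1 and −1.82 without Cdh1-deficient 2.

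Plk2 and Plk3 encode polo-like kinases of the stress response. Plk2 read 10.38, 6.00 and 8.66 in intact cells against 7.97, 6.99 and 7.73 in deficient cells. Both its highest and its lowest value thus lay in the Cdh1-intact group, and the difference of −0.79 (SE 1.08) turned to 0.23 without Cdh1-intact 1. Plk3 read 6.06, 6.41 and 5.20 against 5.05, 5.40 and 5.20, a difference of −0.67 (SE 0.32), with Cdh1-intact 3 inside the Cdh1-deficient range. It was −0.41 without Cdh1-intact 2 and −1.02 without Cdh1-intact 3.

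Psrc1 had the largest difference of the 31, and it was upward. The gene encodes a microtubule-binding protein of the spindle and lies on chromosome 3. It read 6.72, 5.14 and 5.34 in intact cells against 6.70, 7.62 and 6.40 in deficient cells. Cdh1-intact 1 lay among the Cdh1-deficient arrays, and the difference was 1.17 (SE 0.51, limma adjusted p = 0.849). It rested on the chosen probe set, since the 2 others differed by 0.04 and −0.21. Ccng2, an unconventional cyclin gene on chromosome 5, ranged from 7.61 to 8.96 with a difference of 0.37 (SE 0.38). That difference was 0.054 without Cdh1-intact 2, and the other probe set of Ccng2 differed by −0.06.

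The genes of the p53 feedback loop and family were all lower in the Cdh1-deficient mean, 4 of 4, each by less than 0.5 on the log2 scale. Over all genes 49.1% were lower. This role group too was chosen with earlier results of these data known, so its count is only a description. Ccng1, whose cyclin G1 brings a phosphatase to Mdm2, read 9.43, 10.29 and 9.63 in intact cells against 9.42, 9.61 and 9.24 in deficient cells. Its difference was −0.36 (SE 0.25), and −0.11 without Cdh1-intact 2, the highest array. A second of its probe sets separated the groups, with 7.88, 8.41 and 7.66 against 7.35, 7.56 and 7.45 and a difference of −0.53 (SE 0.21).

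Mdm2 varied little, with 8.84, 9.19 and 8.91 in intact cells against 8.79, 9.01 and 8.67 in deficient cells. Its difference of −0.15 (SE 0.15) was about as large as its error, and it was −0.047 without Cdh1-intact 2. Mdm4 ranged from 8.85 to 9.48 with a difference of −0.02 (SE 0.22), while another of its probe sets differed by −0.60. Trp73, which encodes the p53 relative p73, ranged from 3.80 to 4.49, in the dim part of the arrays, with a difference of −0.20 (SE 0.19), or −0.042 without Cdh1-deficient 3.

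Genes grouped here under growth and stress restraint went both ways. The group is broad and also holds Dcxr, which encodes a carbonyl reductase of sugar metabolism. Dcxr had the smallest p of the 31. It read 7.89, 7.88 and 7.34 in intact cells against 7.21, 6.99 and 7.23 in deficient cells. The groups did not overlap, and the difference of −0.56 (SE 0.18, limma adjusted p = 0.849), or 0.680-fold, lay between −0.74 and −0.46 with any 1 array left out.

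Sesn1 and Sesn2 encode sestrins, which dampen the growth kinase complex mTORC1, and they differed in opposite directions. Sesn1 read 10.54, 9.94 and 10.05 in intact cells against 10.47, 10.93 and 11.85 in deficient cells, a difference of 0.91 (SE 0.38, limma adjusted p = 0.849). Only Cdh1-intact 1 reached into the Cdh1-deficient range, and the difference was 0.53 without Cdh1-deficient 3, its highest array. Of its other probe sets 2 were higher without overlap, by 0.99 and 0.70, and the remaining one differed by −0.06. Sesn2 read 6.11, 6.97 and 5.39 against 5.60, 5.73 and 5.48, a difference of −0.55 (SE 0.39), with Cdh1-intact 3 below all Cdh1-deficient arrays. That difference was −0.15 without Cdh1-intact 2 and −0.94 without Cdh1-intact 3. The contrast between the sestrins was not tested.

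Phlda3, which encodes a competitor of Akt at the membrane, read 6.42, 6.74 and 5.98 in intact cells against 6.11, 5.97 and 5.87 in deficient cells. The difference was −0.40 (SE 0.21), or −0.22 without Cdh1-intact 2, and Cdh1-intact 3 lay inside the Cdh1-deficient range. Ddit4, another brake on mTORC1, ranged from 10.23 to 11.50 with a difference of −0.15 (SE 0.33). Trp53inp1, a cofactor of p53 in stressed cells, ranged from 9.69 to 10.77 with a difference of 0.01 (SE 0.34).

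**Figure D2:**
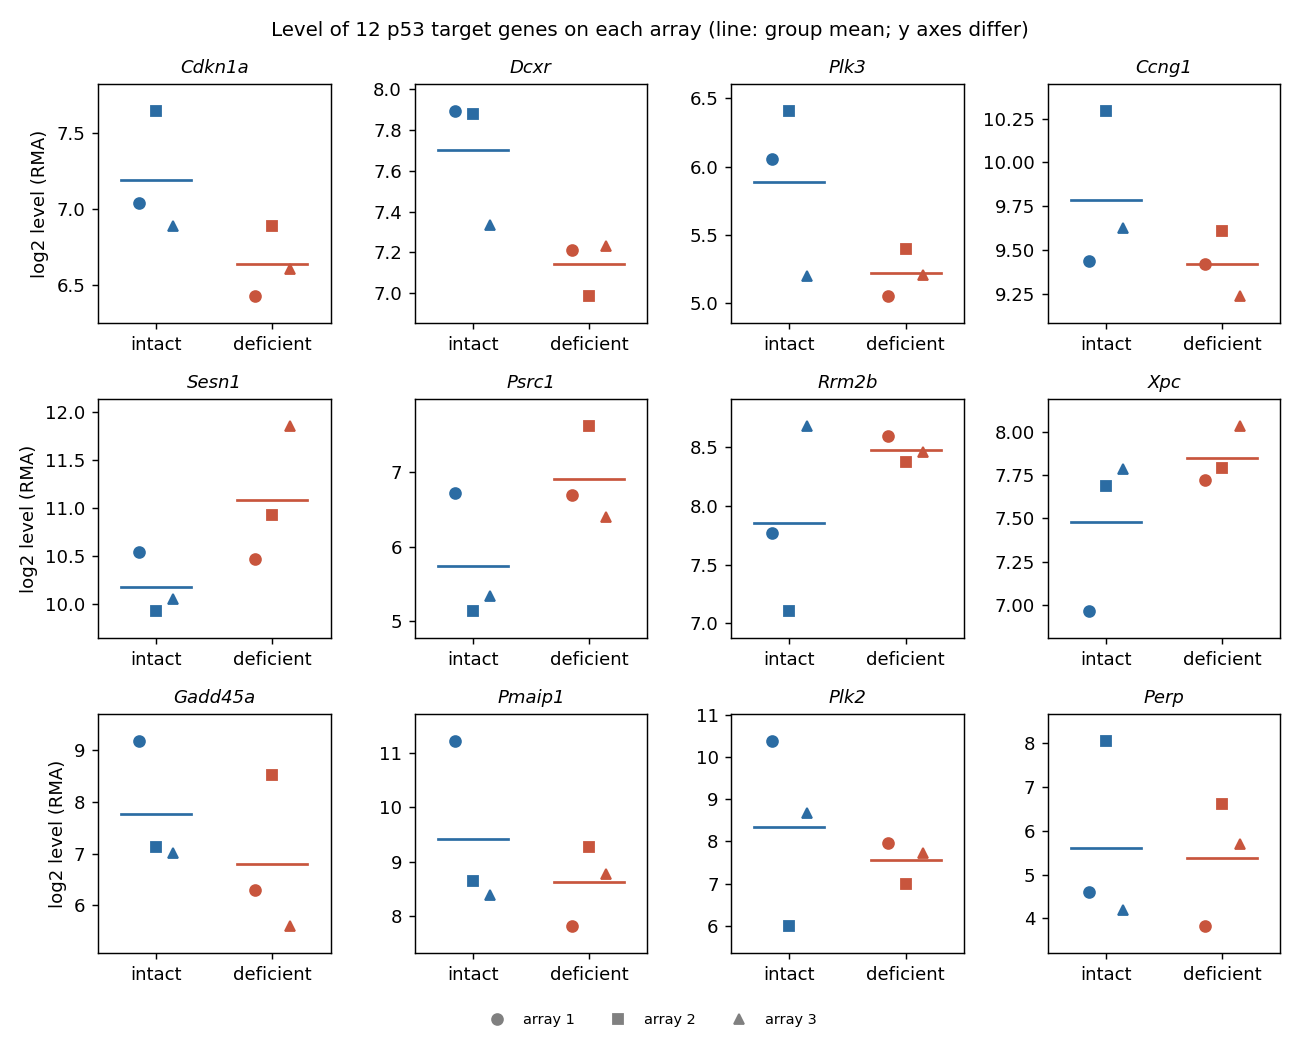
Level of 12 p53 target genes on each array (log2, y axes differ between panels), with 1 symbol per replicate number and a line at each group mean (n = 3). Cdkn1a and Dcxr show groups that do not overlap, and the lowest row shows genes whose spread within a group exceeds the difference between groups.

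The genes grouped here under mitochondrial apoptosis were split, with 4 of 7 lower, against 49.1% of all genes. The group is broad and also holds genes described below by other roles. Bbc3, which encodes the BH3-only protein PUMA, was nearly level at 7.39, 7.26 and 7.07 in intact cells against 7.25, 7.14 and 7.44 in deficient cells. Its difference was 0.03 (SE 0.13). Pmaip1, which encodes NOXA, another BH3-only protein, read 11.21, 8.64 and 8.38 against 7.83, 9.28 and 8.77. Its difference of −0.79 (SE 0.82) came with 1 high array, Cdh1-intact 1, and turned to 0.11 without it.

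Perp, a membrane protein gene of desmosomes and p53-dependent death, had the widest range after Plk2. It read 4.60, 8.04 and 4.19 in intact cells against 3.83, 6.60 and 5.69 in deficient cells. The difference of −0.23 (SE 1.21) turned to 0.98 without Cdh1-intact 2. Zmat3, which encodes an RNA-binding zinc finger protein, read 7.24, 7.40 and 5.72 against 5.17, 6.90 and 6.22, a difference of −0.69 (SE 0.61) between overlapping groups. It was −0.23 without Cdh1-deficient 1 and −1.23 without Cdh1-intact 3.

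The remaining genes of the apoptosis group differed by no more than 0.13. Apaf1, the scaffold of the apoptosome, ranged from 7.45 to 8.11 (difference 0.13, SE 0.20), and Ei24, an endoplasmic reticulum protein gene, from 9.15 to 9.91 (−0.10, SE 0.20). Aen, an apoptosis-enhancing nuclease gene, ranged from 9.23 to 9.59 (0.04, SE 0.13). The differences of Trp53inp1 and Aen turned to −0.031 and −0.0018 with quantile normalization, so neither has a settled direction.

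The 4 genes of death receptors and surface ligands lay in the dim part of the arrays, each with a mean below 5.13, the median over all probe sets. With Trp73 they were the 5 of 31 genes below it. Fas, the receptor of Fas ligand, read 3.57, 4.02 and 4.03 in intact cells against 3.95, 4.14 and 3.81 in deficient cells, a difference of 0.09 (SE 0.17). Eda2r, a p53-induced receptor gene on the X chromosome, read 4.25, 4.33 and 4.09 against 4.20, 3.75 and 4.05 (−0.22, SE 0.15, and −0.10 without Cdh1-deficient 2). Tnfrsf10b, a receptor of the death ligand TRAIL, ranged from 3.66 to 4.25 (−0.10, SE 0.17), and Cd80, a costimulatory ligand, from 4.58 to 5.14 (0.10, SE 0.16).

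Genes of DNA repair and nucleotide supply were higher in the Cdh1-deficient mean, 4 of 4, with a median of 0.35 on the log2 scale and 0 passing the limma test (0 also at an unadjusted p under 0.05). Without Cdh1-intact 2 their differences were 0.25 for Rrm2b, 0.47 for Xpc, 0.081 for Ercc5 and 0.015 for Polk, so 3 of the 4 were smaller. Over all genes 49.1% were lower. The role groups were chosen with earlier results of these data known, so the count of 4 of 4 is only a description. Rrm2b, the p53-inducible subunit of ribonucleotide reductase, read 7.77, 7.11 and 8.67 in intact cells against 8.59, 8.37 and 8.46 in deficient cells. Cdh1-intact 3 was the highest of the 6, and the difference was 0.62 (SE 0.39), or 1.03 without that array. Xpc, which recognises helix-distorting lesions, read 6.97, 7.69 and 7.78 against 7.72, 7.79 and 8.03 (0.37, SE 0.24), with Cdh1-intact 1 as the low array and a difference of 0.11 without it.

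Ercc5, the endonuclease XPG of nucleotide excision repair, ranged from 6.75 to 7.87 (0.34, SE 0.30). Its other probe set, below the median level of all probe sets, differed by −0.17. Polk, a polymerase that copies past lesions, ranged from 6.66 to 7.20 (0.06, SE 0.17), and its difference turned to −0.082 without Cdh1-deficient 3. Without that array the repair list was therefore no longer higher in all its members.

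**Figure D3:**
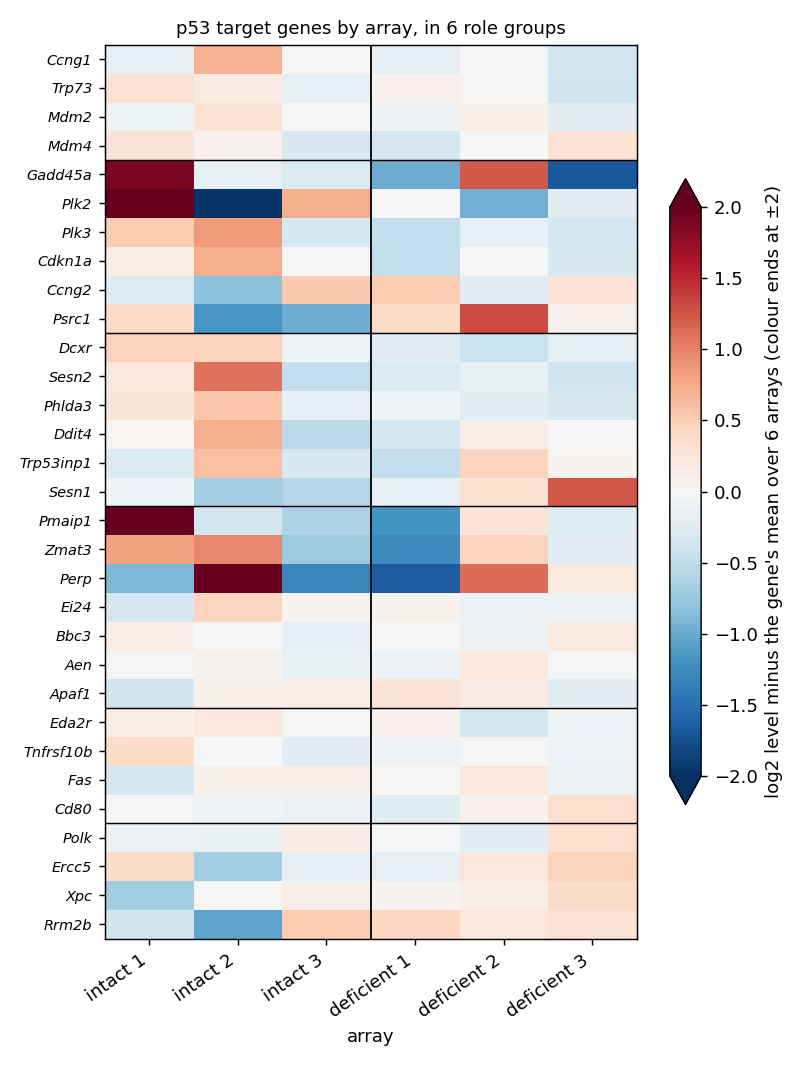
Log2 level of each p53 target gene on each array minus the gene's mean over the 6 arrays (colour, ending at ±2), with arrays as columns and genes as rows in the 6 role groups. Strong colours within the Cdh1-intact columns, such as Plk2 and Pmaip1 on array 1 and Perp on array 2, show where single arrays set the group mean.

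The p53 targets varied more within the groups than most genes did. Their median within-group SD was 0.34, against 0.197 over all genes, and 6 of 31 spanned more than 2 on the log2 scale over the 6 arrays, against 7.54% of all genes. The 6 were Gadd45a, Zmat3, Perp, Plk2, Psrc1 and Pmaip1. Of the 31, 26 lay above the median level of all probe sets, against 10989 of 18193 genes, and the spread was not compared at matched levels.

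The array Cdh1-intact 2 carried the highest of the 6 values for 12 of 31 p53 targets (38.7%), against 21.7% of all genes. They were Cdkn1a, Mdm2, Ccng1, Trp53inp1, Sesn2, Phlda3, Eda2r, Ei24, Zmat3, Perp, Plk3 and Ddit4. It carried the lowest value for 6 (19.4%), against 24.0% of all genes. Among the 6 were Sesn1, Psrc1 and Rrm2b, the 3 genes higher by more than 0.5 in the Cdh1-deficient mean, where 7.63% of all genes were. Lower by more than 0.5 were 8 of the 31, against 3.67% of all genes. Of these, Cdkn1a, Sesn2, Zmat3 and Plk3 were highest on Cdh1-intact 2, and Gadd45a, Plk2, Dcxr and Pmaip1 on Cdh1-intact 1. The differences of Plk2 and Pmaip1 turned upward without Cdh1-intact 1, and these counts were not tested. On Cdh1-intact 2 the mean of the B-lineage markers was low and that of the T and NK cell markers high, though not every marker, as given above. The part of these markers in the p53 target values was not tested.

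Cdh1-intact 1 carried the highest value for 6 of 31 (19.4%), against 20.4% of all genes. They were Gadd45a, Plk2, Dcxr, Tnfrsf10b, Trp73 and Pmaip1. The part of the erythroid and monocyte markers of that array, given above, in these values was not tested. Cdh1-deficient 1 carried the lowest value for 8 of 31 (25.8%), against 8.65% of all genes, and Cdh1-deficient 3 the highest for 7 of 31 (22.6%), against 13.8%. Cdh1-intact 3 lay inside the range of the Cdh1-deficient arrays for 17 of 31 targets, Cdh1-intact 1 for 13 and Cdh1-intact 2 for 10. Over all genes those shares were 47.7%, 39.2% and 36.4%.

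**Figure D4:**
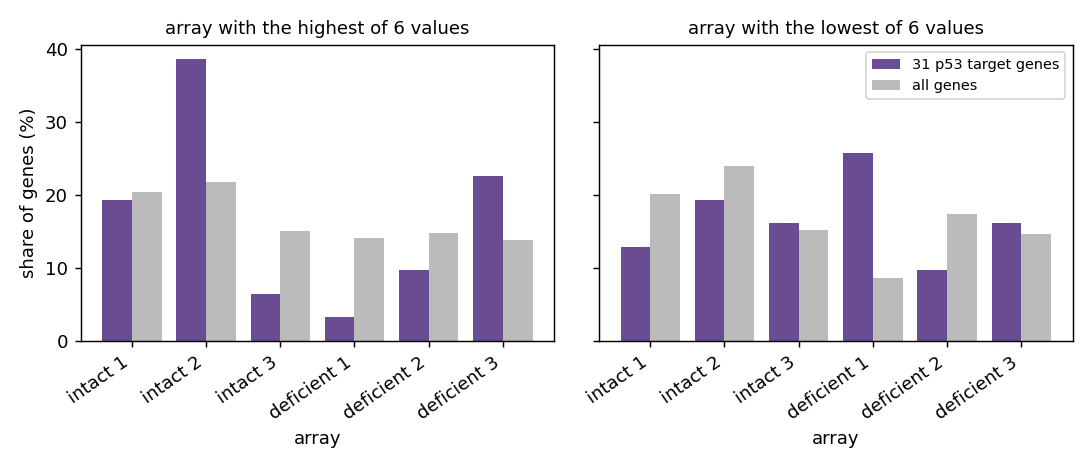
Share of genes (%) whose highest value (left) or lowest value (right) of the 6 lies on each array, for the 31 p53 target genes and for all 18193 genes. The p53 targets peak on Cdh1-intact 2 (38.7% against 21.7%) and have their lowest values most often on Cdh1-deficient 1 (25.8% against 8.65%).

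Genes with and without the tandem site shown above are set side by side as a description. Cdkn1a (−0.55), Ccng1 (−0.36) and Trp73 (−0.20) were lower and Cd80 (0.10) was higher in Cdh1-deficient cells. With the site 3 of 4 measured genes were lower, with a median of −0.28, and without it 11 of 20, with a median of −0.06. Of the 8 measured genes with an exact half-site in a window 5 were lower, with a median of −0.12, and of the 16 measured genes without one 9 were lower, with a median of −0.08.

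Other genes that p53 is known to induce showed no common shift. Of 31 measured genes of a second list of p53 targets 14 were lower and 17 higher, with a median of 0.05 (−0.0095 without Cdh1-deficient 3). With limma 0 passed, and 3 had an unadjusted p under 0.05. Among all genes 49.1% were lower and 5.5% had such a p. Sertad1, a regulator of cyclin-dependent kinase 4, read 8.30, 7.82 and 7.85 in intact cells against 7.58, 6.85 and 6.93 in deficient cells, a difference of −0.87 (SE 0.24). Btg2, an antiproliferative gene that growth signals also induce, read 10.55, 9.23 and 9.68 against 9.18, 8.93 and 8.29 (−1.02, SE 0.39). In both the groups did not overlap.

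Triap1, a p53-induced survival gene on chromosome 5, read 8.43, 8.36 and 8.47 in intact cells against 8.81, 8.58 and 8.89 in deficient cells (0.34, SE 0.12). It too separated the groups, upward. Casp1, the inflammatory caspase gene, read 6.53 on Cdh1-intact 1, 4.84 on Cdh1-intact 2 and 8.21 to 9.31 on the other arrays (2.04, SE 1.03). Cdh1-intact 3 lay inside the Cdh1-deficient range.

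Regulators and cofactors of p53 were higher in the Cdh1-deficient mean in 28 of 31 cases, where 49.1% of all genes were lower. Their median was 0.14 (0.066 without Cdh1-intact 1 and 0.22 without Cdh1-intact 3). With limma 0 passed, and 2 had an unadjusted p under 0.05, where 5.5% of all genes did. Ep300, the acetyltransferase that p53 recruits, read 8.43, 8.50 and 8.82 in intact cells against 9.11, 9.21 and 9.11 in deficient cells (0.56, SE 0.13). The damage kinase gene Chek2 read 6.82, 7.69 and 7.76 against 8.34, 8.28 and 8.16 (0.84, SE 0.27). In both the groups were separate. Usp7, the deubiquitinase of Mdm2 and p53, read 10.80, 10.68 and 10.72 against 10.80, 11.22 and 11.05 (0.29, SE 0.13). When the probe sets of each gene were averaged, the median of the list was 0.03.

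Cdkn2a, the gene of Arf and of the inhibitor p16, read 3.38, 5.79 and 10.73 in intact cells against 10.71, 10.16 and 11.11 in deficient cells, a difference of 4.03 (SE 1.79, limma adjusted p = 0.849). It lay below 3.81, the lower quartile of all probe sets, on Cdh1-intact 1 and was low on Cdh1-intact 2, while Cdh1-intact 3 lay within the Cdh1-deficient range. Of the 2 arrays with low Cdkn2a, Cdh1-intact 1 carried the highest value for 6 of the 31 p53 targets (19.4%), against 20.4% of all genes. Cdh1-intact 2 carried it for 12 (38.7%), against 21.7% of all genes. A relation with Cdkn2a was not tested.

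Genes that p53 lowers through p21 and the DREAM repressor complex were higher in the Cdh1-deficient mean for 17 of 20, with a median of 0.19. With limma 0 passed, and 2 had an unadjusted p under 0.05. Among all genes 49.1% were lower and 5.5% had such a p. The median of the list was 0.0033 without Cdh1-intact 2 and 0.34 without Cdh1-intact 3. Ect2, a gene of cytokinesis on chromosome 3, read 8.80, 8.83 and 9.15 against 9.57, 10.02 and 9.52 (0.78, SE 0.18). Ccna2, which encodes cyclin A2, read 11.54, 11.12 and 11.73 against 11.83, 12.24 and 12.23 (0.63, SE 0.20). Both separated the groups. The mitotic kinase gene Aurkb (0.32, SE 0.16) and the kinetochore gene Cenpf (0.58, SE 0.30) overlapped between them.

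Immediate early genes were lower in the Cdh1-deficient mean for 21 of 21, with a median of −2.07, where 49.1% of all genes were lower. With limma 0 passed, and 10 had an unadjusted p under 0.05, where 5.5% of all genes did. The list is given here because Gadd45a, Plk2, Plk3, Ddit4 and Cdkn1a also respond to growth signals and stress without p53. The mean of the list was 9.91, 9.41 and 8.25 in intact cells against 7.32, 8.36 and 6.86 in deficient cells. Cdh1-deficient 2 thus overlapped with Cdh1-intact 3. Of the 5 named p53 targets, Gadd45a, Plk3, Ddit4 and Cdkn1a had their highest Cdh1-deficient value on that array and Plk2 its lowest. On Cdh1-intact 1, the highest array for the list, Gadd45a and Plk2 were highest, while Cdkn1a, Plk3 and Ddit4 were highest on Cdh1-intact 2. The part of the immediate early genes in these p53 target values was not tested.

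Cd69, an activation antigen, differed by −3.62 (SE 0.48), and the AP-1 gene Fosb by −3.08 (SE 0.61). The stress factor gene Atf3 read 8.90, 6.72 and 7.39 in intact cells against 5.13, 5.57 and 6.02 in deficient cells (−2.09, SE 0.58), and the phosphatase gene Dusp2 differed by −1.42 (SE 0.31). All 4 were without overlap between the groups.

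**Figure D5:**
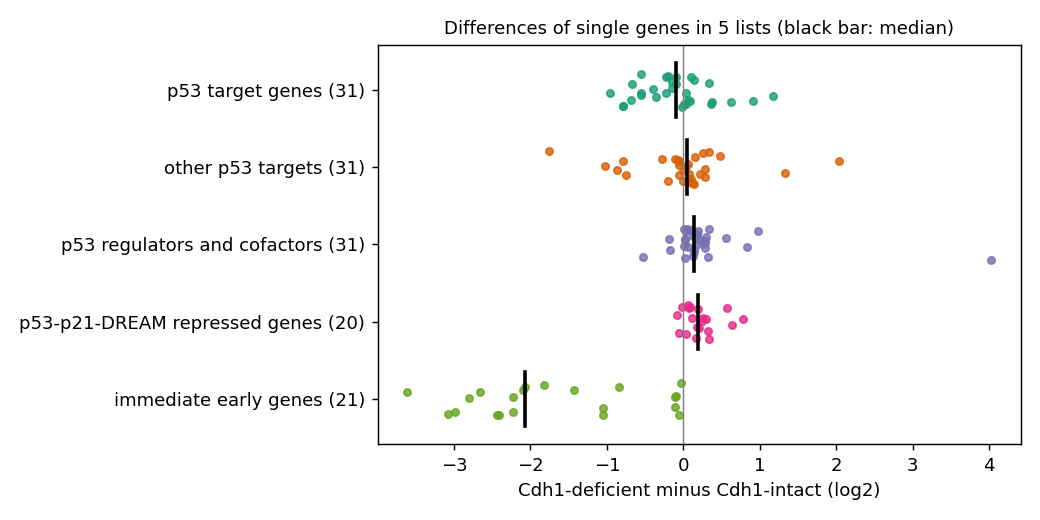
Difference of each gene (x axis, log2 of deficient over intact cells), in the p53 target list and 4 related lists, with 1 point per gene, the number of measured genes in brackets and a black bar at the median. The p53 targets spread on both sides of 0 (median −0.10), the immediate early genes lie to the left (median −2.07), and the single point far to the right is Cdkn2a (4.03).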

How the data were processed

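What was deposited is a table of log2 values for 45101 probe sets on 6 Affymetrix one-colour arrays. Per the submitters' processing notes the authors obtained the log2 values by RMA, of which no version is named. RMA equalizes array distributions, so a difference in total RNA per cell cannot be seen. Array medians were 5.07 to 5.13. Precision is limited by the number of arrays.

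Symbols came from the 2016 platform annotation. Of the probe sets 34945 carried 1 symbol, 932 carried several and were not used, and 9211 were not listed and stay unnamed. Each gene took its probe set of highest mean, which gave 18193 genes, with no filter on level. Of the 31 measured targets 18 had several probe sets. For 10 of these at least 1 other set differed in the opposite direction to the chosen one. The 32 genes, taken by name, the role groups and related lists were chosen with earlier results of these data known. No list was tested as a set.

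The comparison used limma 3.58.1 under R 4.3.3 (lmFit and eBayes, two-sided), the tool the series names, with Benjamini-Hochberg adjustment over all genes and a threshold of 0.05. SE is limma's moderated standard error. The fit was run on simulated arrays with known added differences, as a check of the code only. Their noise was independent between genes, so an array that differs in many genes at once was not covered. An exact permutation of 3 against 3 arrays cannot go below p = 0.1, so none was used. Levels were given per array for 6 core targets (5 measured), the 12 of smallest p and those ranging over more than 2. Of each related list the 4 genes of smallest p were named, some with levels per array and the others with a difference and SE. Alternatives were other normalizations, level filters, probe set choices, variance models and thresholds, a replicate block, and each array left out.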

Additional observations from a re-analysis of the deposited data

How the results depend on the processing

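No p53 target and no gene had a limma adjusted p under 0.05 in any of the 16 alternative fits, nor under 0.1 in the reported one. Deviations of same-numbered arrays correlated across genes at −0.14, 0.01 and 0.04, and those of differently numbered arrays at −0.21 to 0.22. With 3 arrays per group these values cannot settle whether the replicate numbers pair the arrays. With the replicate block 2 targets had an unadjusted p under 0.05 (5.36% of all genes), as with quantile normalization (2, 5.31%) or trend and robust estimation (2, 5.14%). Without shared-target probe sets it was 3 (5.50%), and 1 target was higher without overlap (6.50%). With 1 array left out the counts were 0 to 6 at an unadjusted p under 0.05 (2.43% to 9.62% of all genes), 2 to 8 lower (7.79% to 13.3%) and 0 to 3 higher without overlap (9.51% to 15.2%), and the median of the immediate early genes −2.23 to −1.31. Of the 31 targets 16 kept their direction in every alternative that gave a value. Directions turned with quantile normalization for Trp53inp1 (−0.031) and Aen (−0.0018), and with the mean of probe sets for Trp53inp1 (−0.13), Aen (−0.0054) and Cd80 (−0.19). They also turned with the probe set of largest variance for Sesn1 (−0.055), Aen (−0.16) and Cd80 (−0.57), without shared-target probe sets for Mdm4 (0.012) and Tnfrsf10b (0.014), and with array weights for Mdm4 (0.060) and Perp (0.12). With 1 array left out 14 turned: Mdm4 (−0.18 to 0.15), Trp53inp1 (−0.21 to 0.31), Plk2 (−1.96 to 0.23), Apaf1 (−0.035 to 0.28), Tnfrsf10b (−0.23 to 0.062), Pmaip1 (−1.30 to 0.11), Fas (−0.063 to 0.17), Ei24 (−0.29 to 0.089), Perp (−0.94 to 0.98), Ddit4 (−0.46 to 0.18), Aen (−0.060 to 0.10), Bbc3 (−0.053 to 0.11), Polk (−0.082 to 0.19) and Cd80 (−0.031 to 0.25). The causes of these turns were not tested. With genes below the median level left out, 5 targets (Eda2r, Tnfrsf10b, Trp73, Fas and Cd80) gave no value.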
